A study of Mus musculus with 9 samples.

Results

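The 51 genes described here encode proteins of DNA replication and S phase, from the origin recognition complex to the E2F transcription factors. They were listed by name, with earlier results of these data known. Each was read from non-control probes whose RefSeq accession maps to its symbol. All 51 had a probe well above background on every array of at least 1 group, so all 51 stood among the 14504 genes tested. By role, 20 act in origin licensing and firing, 16 are fork polymerases, clamp and strand processing proteins, 5 supply nucleotides, 5 are E2F and cyclin E regulators, and 5 serve chromatin and histone supply, a group that also holds Cdca7.

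Expression was measured on 9 single-colour arrays of total RNA from erythroblasts, the nucleated precursors of red cells, sorted from mouse bone marrow in a gate the labels call subset II. The cells came from mice given low iron diet for 7 weeks after weaning (3 arrays), from mice given it for 3 weeks after weaning (3 arrays), and from mice on normal diet (3 arrays). All mice are described as wild-type C57BL/6J and female, so no allele or other agent differs between the groups; the age of the normal diet mice and whether RNA of several animals was pooled were not given in the sources used here. Within a group the 3 samples are described as biological replicates, and p-values measure the spread between those samples. The series concerns iron deficiency anemia, and the comparisons ask which of the genes differed after each time on the diet and between the 2 times.

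In each cell cycle the origin recognition complex marks start sites on DNA, where Cdc6 and Cdt1 load the Mcm2 to Mcm7 ring in an inactive form. Kinases then recruit Cdc45 and the GINS complex to make the active helicase, and DNA polymerases copy behind it with the Pcna clamp, which replication factor C loads. E2F factors drive transcription of many of these genes at the entry to S phase, and cyclin E with Cdk2 promotes that entry. Erythroblasts divide several times while they mature. Iron enters the process directly, because ribonucleotide reductase holds an iron centre in its small subunit and several polymerases and helicases carry an iron-sulfur cluster.

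The promoters of 4 members are shown because 3 of them (Orc1, Pola1 and Cdca7) are the members lower at 7 weeks against normal diet whose promoter window held an E2F-type match, and the fourth, Cdc45, is the member with the largest 7 week fall against 3 weeks. The sequences are those of RefSeq for GRCm38.p6, each the 150 bases just before the annotated start, read 5′ to 3′ on the gene's strand; Orc1 lies at chr4:108579304-108579453 (+), Pola1 at chrX:93632156-93632305 (−), Cdca7 at chr2:72476069-72476218 (+) and Cdc45 at chr16:18811973-18812122 (−). Capitals mark the match.
Orc1: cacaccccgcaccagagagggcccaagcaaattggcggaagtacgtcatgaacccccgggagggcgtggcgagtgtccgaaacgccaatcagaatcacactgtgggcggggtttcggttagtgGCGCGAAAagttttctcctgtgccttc
Pola1: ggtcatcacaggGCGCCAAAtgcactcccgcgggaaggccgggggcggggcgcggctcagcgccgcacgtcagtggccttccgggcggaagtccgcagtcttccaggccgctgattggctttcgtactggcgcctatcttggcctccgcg
Cdca7: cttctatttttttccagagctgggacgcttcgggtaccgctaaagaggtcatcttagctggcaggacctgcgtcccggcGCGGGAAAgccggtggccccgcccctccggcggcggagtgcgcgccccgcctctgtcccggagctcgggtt
Cdc45: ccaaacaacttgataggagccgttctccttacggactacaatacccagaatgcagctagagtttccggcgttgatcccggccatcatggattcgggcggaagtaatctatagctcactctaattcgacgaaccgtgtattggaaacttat
The motif searched was TTTNNCGC on both strands (GCGNNAAA on the other), in the window from 250 bases before to 50 bases after the start. Windows of 44 of the 51 members were found, 52 windows in all. An E2F-type match lay in 18 of those 52 windows (34.6%), against 1698 of all 32851 promoter windows of the same length (5.17%). Among members that fell at 7 weeks against normal diet, 3 of the 12 with a window had a match, and among members that did not pass the threshold 14 of 32 had one. CCAAT, searched on both strands, lay in 30 of the 52 windows (57.7%) and in 37.4% of all windows. A match is a string of letters and not a bound site, and the Cdc45 window held no E2F-type match.

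Several features of the arrays bear on every value below. The 3 groups occupied 3 different slides, each scanned separately, so slide, scan and group cannot be told apart. The 75th percentile of signal, to which all levels are scaled, was 791.7 to 1087 at 7 weeks, 1677 to 1837 at 3 weeks and 1499 to 1616 on normal diet. The share of spots well above background was 45.2% to 53.6% on the 7 week arrays, 56.8% to 70.8% on the 3 week arrays and 65.5% to 66.3% on the normal diet arrays. Normal diet replicates 1 and 2 go against the female label, with Y-linked Eif2s3y at log2 levels of 5.12 and 4.82 against -3.77 on replicate 3, and with X-inactivation RNA Xist at -5.59 and -5.24 against -0.73. On the low iron arrays Eif2s3y lay between -6.61 and -3.98. By these RNAs sex therefore differs along with diet in the comparisons with normal diet. Of the erythroid markers, 14 of 15 were measured and all 14 were well above background on every array, with a summed linear level (75th percentile = 1) of 3124 to 4927 at 7 weeks, 2200 to 2401 at 3 weeks and 2519 to 2683 on normal diet. The spike-in control spots, as mean log2 signal less the 75th percentile of the array, stood at 4.42 to 5.36 on the 7 week arrays, against 1.12 to 1.496 on the 3 week arrays and 0.57 to 1.74 on the normal diet arrays. Their part in the 7 week results was not tested. No spot was saturated, and the brightest member, Pcna, reached 47.5% of the saturation value.

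On 7 week replicate 1 the replication genes stood apart from all other arrays. A gene's level is its log2 signal relative to the 75th percentile of its array, and the difference from the normal diet mean was taken for each member on each array. Its median over the 51 members was -2.94, -0.68 and -0.39 on 7 week replicates 1, 2 and 3, was -0.50, -0.54 and -0.28 on the 3 week arrays, and was 0.22, -0.16 and -0.04 on the normal diet arrays. Replicate 1 at 7 weeks was the lowest of the 9 arrays for 45 of the 51 members, against 22.5% of all genes tested. Its level was below the mean of the other 7 week arrays by a median of 2.32 log2 units over the members (median gap -2.32), while the median gap was -0.01 over all genes, 0.25 over 25 genes of G2 and M phase and 0.77 over 14 erythroid markers. A gap below -1 was found for 42 of the 51 members and for none of the 25 G2 and M phase genes. Under quantile normalization, normexp background correction and the deposited series table the members' median gap was -2.19, -2.23 and -2.36. Counts and medians at 7 weeks are therefore given with and without this array, as are the fold changes of the members called. In sorted bulk cells a lower share of cells in S phase and less of these RNAs per cell cannot be told apart.

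**Figure D1:**
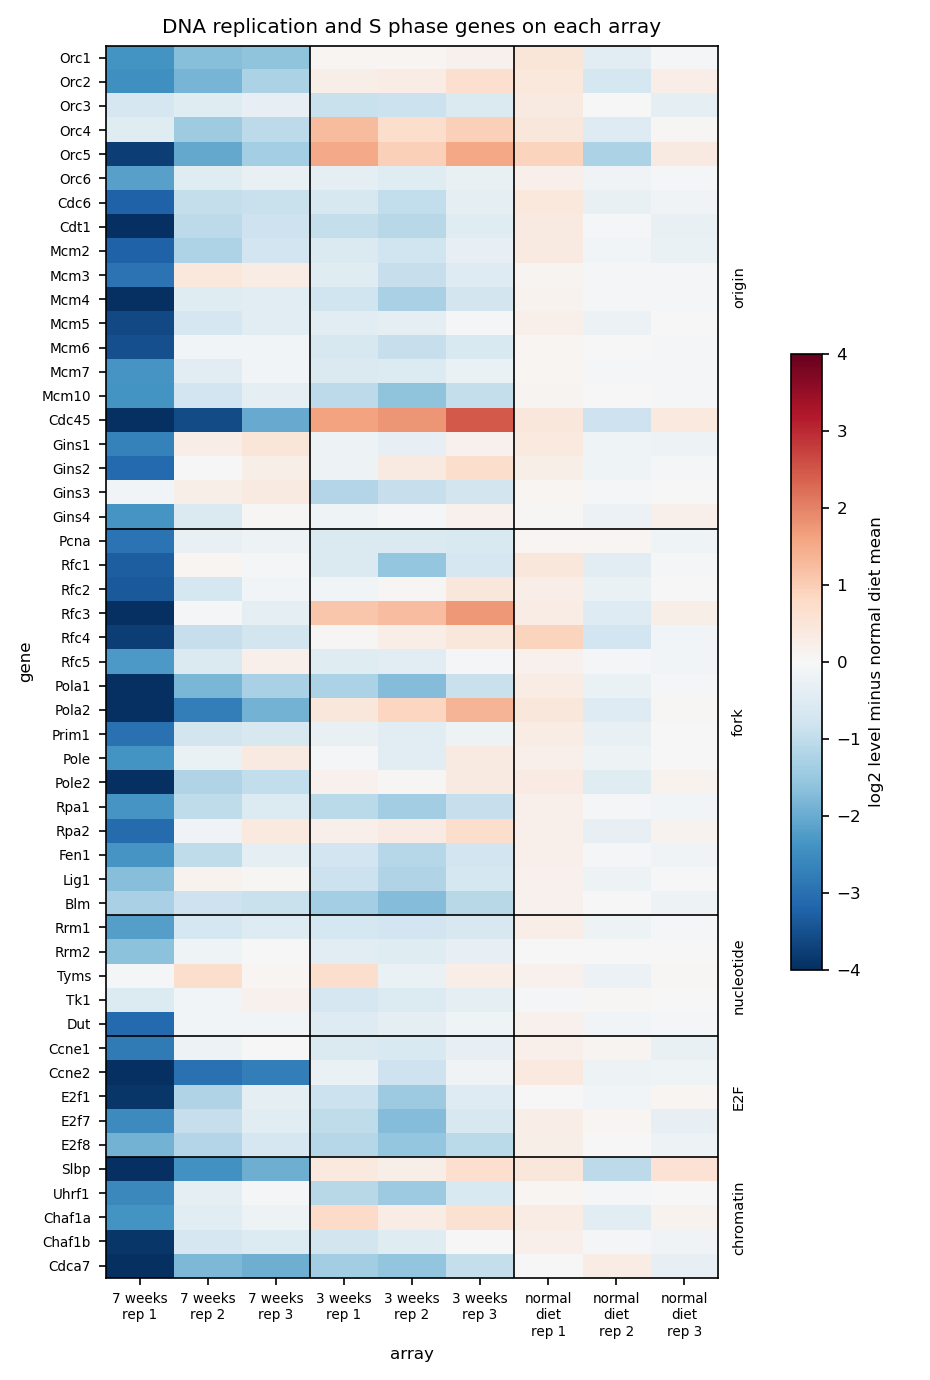
Log2 level of each of the 51 members on each array, as the difference from the gene's normal diet mean (colour scale from -4 to 4 log2 units), with arrays in columns and genes in rows ordered by role group. The column of 7 week replicate 1 is blue in nearly every row, with a median difference of -2.94, against -0.68 and -0.39 on the other 7 week arrays.

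The members also varied more between the arrays of a group at 7 weeks than at 3 weeks or on normal diet. The SD of a member's level over the 3 arrays of a group had a median of 1.34 at 7 weeks, 0.25 at 3 weeks and 0.23 on normal diet, against 0.58, 0.32 and 0.29 over all genes tested. Since 1 estimate of the spread was shared by all groups, the 7 week spread widened the standard errors of the 3 week comparison too. The gap of replicate 1 was largest for Rfc3, a clamp loader subunit (-4.67), Pole2, the accessory subunit of DNA polymerase epsilon (-4.38), Cdca7 (-3.83) and Mcm4, a subunit of the helicase ring (-3.79). It was smallest in size for Orc3, a subunit of the origin recognition complex (-0.26), and positive for its partner Orc4 alone (0.74).

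**Figure D2:**
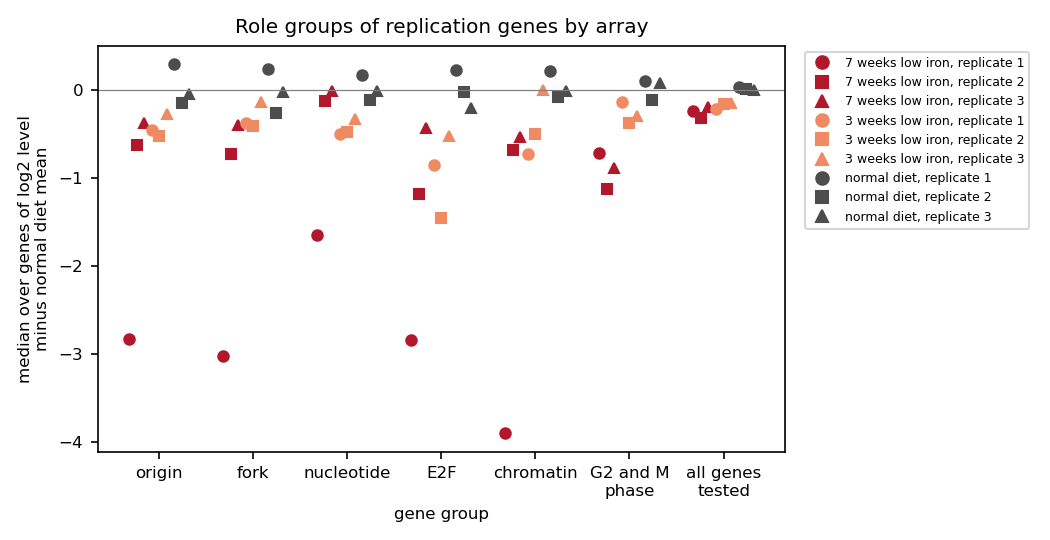
Median over the genes of a group of the log2 level minus the normal diet mean, for each array (colours for diet groups, marker shapes for replicates), in the 5 role groups, the G2 and M phase genes and all genes tested. The 7 week replicate 1 circle lies at -2.82, -3.02, -1.65, -2.84 and -3.90 in the origin, fork, nucleotide, E2F and chromatin groups and at -0.72 for G2 and M phase genes.

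After 7 weeks of low iron diet 13 of the 51 replication genes were lower than on normal diet and none was higher. They were Ccne2, Pola2, Cdc45, Cdca7, Slbp, Orc5, Pola1, Orc1, Orc2, Mcm2, Rpa1, E2f8 and Blm, and so came from the origin, fork, E2F and chromatin groups; none was a gene of nucleotide supply, though 3 of its 5 genes passed under quantile normalization. The 13 are 25.5% of the members, where 18.7% of all genes tested were called lower (limma, adjusted p under 0.05), and the 0 higher members stand beside 10.7% of all genes. At an unadjusted p under 0.05 there were 24 members in either direction. The median log2 fold change over the 51 members was -1.25, beside -0.27 over all genes, and 49 of the 51 values were below 0. All 3 arrays at 7 weeks lay below all 3 on normal diet for 29 members (56.9%, against 29.4% of all genes) and above them for none (18.1% of all genes). Without 7 week replicate 1 there were 16 lower members and again none higher, against 23.2% and 12.7% of all genes, and the median over members was -0.54. Those 16 were the 13 less Rpa1, with Orc4, Cdc6, Cdt1 and Pole2 added. Quantile normalization also gave 16 lower members, the 13 less Mcm2 (-1.54, adjusted p = 0.0695) and Cdca7 (-2.84, adjusted p = 0.0575), with Fen1, Pcna, Rrm1, Rrm2 and Tk1 added. These 16 are 31.4% of the members, and in that setting 2458 of all 14504 genes were called lower and 1503 higher. Rpa1 lost its call under normexp correction, and Mcm2, Rpa1 and Blm lost theirs under median centring and, with E2f8, when the percentile was taken over probes above background on all arrays. With the 2 groups fitted alone only Ccne2, Pola2, Cdc45, Slbp, Orc1 and Orc2 passed. The counts over all genes in that fit are not given here. Without normal diet replicates 1 and 2, which leaves 1 normal diet array assumed to vary like the other groups, no member passed, 1 of the 14504 genes did, and the members' median was -1.11.

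After 3 weeks 3 members were lower than on normal diet, the helicase gene Blm, the repressor E2f8 and the helicase subunit Gins3, and none was higher. These 3 are 5.88% of the members, beside 7.88% of all genes called lower, and 3.52% of all genes were called higher, so the share is close to that of all genes. At an unadjusted p under 0.05 there were 8 members in either direction. The median over the 51 members was -0.41, beside -0.17 over all genes, but it turned to 0.13 under quantile normalization, where the median of all genes was -0.02 and none of the 51 members passed. In that setting 808 of all 14504 genes were called lower and 615 higher. The 3 week arrays all lay below the normal diet arrays for 28 members (54.9%, against 31.6% of all genes) and above them for 6 (11.8%, against 18.0%). Leaving out 7 week replicate 1, which enters this comparison through the shared spread alone, gave 3 higher members (Orc4, Cdc45 and Rfc3) and 14 lower ones (27.5%), against 8.26% and 15.9% of all genes. The 14 were Mcm4, Mcm6, Mcm10, Gins3, Pola1, Rpa1, Fen1, Lig1, Blm, Rrm1, E2f7, E2f8, Uhrf1 and Cdca7. A fit of the 3 week and normal diet arrays alone gave 3 higher and 15 lower members. The counts over all genes in that fit are not given here, so it does not show whether the members stood out. Without normal diet replicates 1 and 2, which leaves 1 normal diet array, the members' median was -0.32. The calls were few under single omissions: leaving out any 1 of the 3 normal diet arrays, or 3 week replicate 1 or 2, left 0 lower members, and leaving out 3 week replicate 3 left 1.

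Against 3 weeks, the 7 week arrays had 10 lower members (Cdc45, Pola2, Orc5, Slbp, Ccne2, Rfc3, Orc2, Orc1, Orc4 and Chaf1a) and 1 higher, Gins3. The 10 are 19.6% of the members, the same share as the 19.6% of all genes called lower, and 17.5% of all genes were called higher. The median over members was -0.77, beside -0.13 over all genes, and 43 of 51 values were below 0. The groups did not overlap for 14 members lower at 7 weeks (27.5%, against 25.2% of all genes) and for 1 member higher (1.96%, against 23.2%). Without 7 week replicate 1 the median over members turned to 0.09, with 11 lower members (24.4% of all genes) and 3 higher (Mcm3, Gins3 and Lig1; 20.4% of all genes). Quantile normalization gave 17 lower members (33.3%) and none higher, beside 3212 lower and 2266 higher among all 14504 genes. Rfc3 and Gins3 were then no longer called. This comparison shares its 7 week arrays with the one against normal diet. Since both diet times count from weaning, age differs along with time on the diet in it.

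**Figure D3:**
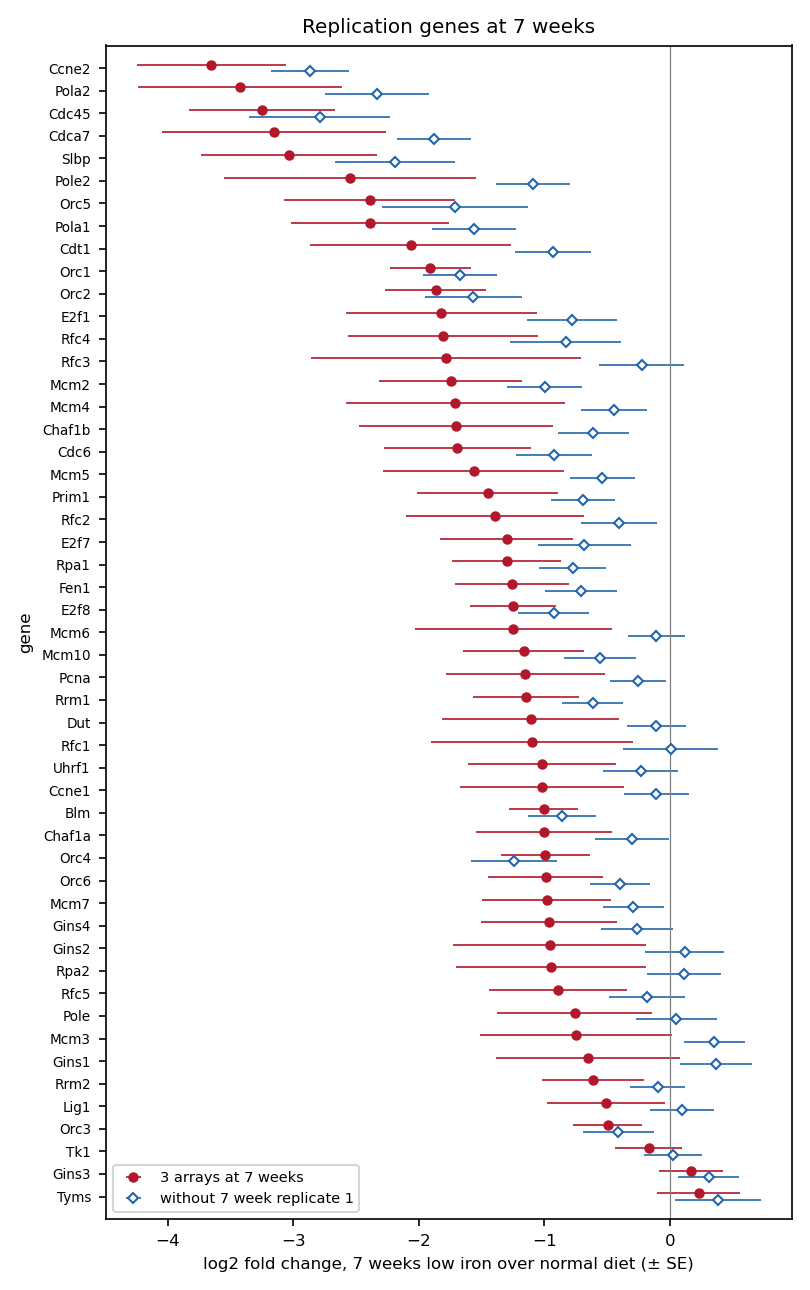
Log2 fold change at 7 weeks of low iron diet over normal diet for each of the 51 members, with the standard error of limma as bars, from all 3 of the 7 week arrays (red circles) and without 7 week replicate 1 (open blue diamonds). Values from 3 arrays run from -3.65 (Ccne2) to 0.23 (Tyms), and the median moves to -0.54 without that array, against -1.25 with it.

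Origin licensing and firing held 5 of the 13 members that fell at 7 weeks against normal diet, and its 20 genes had a median log2 fold change of -1.21 at 7 weeks and -0.43 at 3 weeks. The 7 week median was -0.49 without 7 week replicate 1, and the 3 week median turned to 0.23 under quantile normalization. The subunits of the origin recognition complex did not move alike. In what follows a fold change is on the log2 scale ± limma's standard error, with 3 arrays a group. Orc1, the largest subunit, which in mammals comes and goes with the cell cycle, had log2 levels of 1.21, 1.88 and 1.97 at 7 weeks, 3.68, 3.68 and 3.77 at 3 weeks and 4.06, 3.17 and 3.55 on normal diet. All 3 of the 7 week arrays lay below the other 6, and the 3 week arrays lay among the normal diet arrays. Orc1 fell at 7 weeks, at -1.91 ± 0.32 (adjusted p = 0.00479) against normal diet and at -2.03 ± 0.32 (adjusted p = 0.00189) against 3 weeks, calls kept in all 9 fits that left out 1 array. Without 7 week replicate 1 these were -1.67 ± 0.29 and -1.79 ± 0.29, and the 3 week value was 0.12 ± 0.32 (adjusted p = 0.841). Orc2, a core subunit, stood at 0.07, 0.68 and 1.26 on the 7 week arrays, 2.77, 2.83 and 3.21 on the 3 week arrays and 2.97, 1.83 and 2.81 on the normal diet arrays. Its 7 week arrays were again the 3 lowest of the 9. The fold change was -1.87 ± 0.40 (adjusted p = 0.0109) against normal diet, a call lost without normal diet replicate 1, and -2.27 ± 0.40 (adjusted p = 0.00312) against 3 weeks, or -1.57 ± 0.39 and -1.97 ± 0.39 without 7 week replicate 1. Orc5, an ATP-binding core subunit, had levels of -2.28, -0.57 and 0.11 at 7 weeks, 2.99, 2.44 and 3.03 at 3 weeks and 2.38, 0.23 and 1.84 on normal diet. The 7 week arrays were lowest and the 3 week arrays highest, though normal diet replicate 2 lay only just above 7 week replicate 3. Orc5 fell, at -2.39 ± 0.68 (adjusted p = 0.0298) against normal diet, a call lost without normal diet replicate 1 or 3, and at -3.73 ± 0.68 (adjusted p = 0.00357) against 3 weeks. These became -1.71 ± 0.58 and -3.05 ± 0.58 without 7 week replicate 1. Orc4 differed from these, with levels of -0.30, -1.23 and -0.86 on the 7 week arrays, 1.47, 0.90 and 1.16 on the 3 week arrays and 0.66, -0.31 and 0.24 on the normal diet arrays. Its 3 week arrays all lay above normal diet, and at 7 weeks it passed against 3 weeks (-1.98 ± 0.35, adjusted p = 0.00327) but not against normal diet (-0.99 ± 0.35, adjusted p = 0.0617). Orc4 is the member whose 7 week replicate 1 was its highest 7 week array, and without it the values were -2.22 ± 0.34 and -1.24 ± 0.34, both past the threshold. Orc3 (-0.50 ± 0.28, adjusted p = 0.197) and Orc6 (-0.99 ± 0.46, adjusted p = 0.129) did not pass at 7 weeks against normal diet.

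The 2 loaders of the helicase did not pass with all 9 arrays, though Cdc6 did under normexp correction (-1.81, adjusted p = 0.038). Cdc6, the ATPase that joins the origin recognition complex, had levels of 2.05, 4.34 and 4.39 at 7 weeks, 4.66, 4.31 and 4.93 at 3 weeks and 5.71, 5.0 and 5.16 on normal diet. The 7 week arrays were all below normal diet, with replicates 2 and 3 close to the 3 week arrays and replicate 1 well under them. Its 7 week fold change against normal diet was -1.70 ± 0.59 (adjusted p = 0.0558), and -0.92 ± 0.30 without 7 week replicate 1, which passed. Cdt1, which brings the helicase to the origin, stood at 2.01, 5.30 and 5.50 on the 7 week arrays, 5.39, 5.23 and 5.86 on the 3 week arrays and 6.71, 6.26 and 6.05 on the normal diet arrays. It showed the same arrangement of arrays. Its fold change was -2.07 ± 0.80 (adjusted p = 0.0799), and -0.93 ± 0.30 without that array, which passed.

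Of the helicase ring, Mcm2 alone passed at 7 weeks against normal diet. Mcm2 had levels of 3.0, 5.01 and 5.48 at 7 weeks, 5.65, 5.44 and 5.92 at 3 weeks and 6.61, 6.13 and 5.98 on normal diet. All 7 week arrays were below all normal diet arrays, and replicate 1 was the lowest by a wide margin. Mcm2 fell, at -1.75 ± 0.57 (adjusted p = 0.0467) against normal diet, a call kept in 2 of the 9 fits that left out 1 array (those without 7 week replicate 1, at -1.0 ± 0.30, and without 7 week replicate 3). Mcm5, another ring subunit, stood at 2.93, 5.87 and 6.13 on the 7 week arrays, 6.13, 6.16 and 6.48 on the 3 week arrays and 6.75, 6.32 and 6.55 on the normal diet arrays. Apart from 7 week replicate 1, its arrays spanned less than 1 log2 unit over all 3 groups. Its 7 week value against normal diet was -1.56 ± 0.72 (adjusted p = 0.129), and -0.54 ± 0.26 without that array. Mcm3, Mcm4, Mcm6 and Mcm7 had 7 week values from -1.71 (Mcm4) to -0.75 (Mcm3) and did not pass; without replicate 1 these became -0.45 and 0.35. Mcm10, which helps start unwinding, had -1.17 ± 0.48 (adjusted p = 0.0975) at 7 weeks and -1.21 ± 0.48 (adjusted p = 0.134) at 3 weeks, where the 3 arrays all lay below normal diet.

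Cdc45, the factor that turns the ring into an active helicase, had the largest difference between 7 and 3 weeks of the 51 members. Its levels were -2.73, -2.14 and -0.55 at 7 weeks, 3.06, 3.22 and 3.91 at 3 weeks and 1.89, 0.61 and 1.84 on normal diet. The 3 groups did not overlap, with the 7 week arrays lowest and the 3 week arrays highest. Cdc45 fell, at -3.25 ± 0.58 (adjusted p = 0.00594) against normal diet (9.54-fold lower) and at -5.20 ± 0.58 (adjusted p = 5.31e-04) against 3 weeks (36.8-fold lower), and both calls held in all 9 fits that left out 1 array, at -2.79 ± 0.56 and -4.74 ± 0.56 without 7 week replicate 1. Its 3 week value against normal diet was 1.95 ± 0.58 (adjusted p = 0.0609). The GINS complex, its partner in the helicase, did not follow it. Gins3, a GINS subunit also called Psf3, had levels of 6.36, 6.72 and 6.84 on the 7 week arrays, 5.29, 5.54 and 5.75 on the 3 week arrays and 6.56, 6.38 and 6.48 on the normal diet arrays. The 3 week arrays lay below all the others, and the 7 week arrays spread around normal diet. Gins3 fell at 3 weeks, at -0.94 ± 0.26 (adjusted p = 0.0462), a call lost when any 1 of the 6 arrays compared was left out, with values from -1.06 to -0.83, and lost under quantile normalization (-0.38, adjusted p = 0.307). It had 0.17 ± 0.26 (adjusted p = 0.64) at 7 weeks against normal diet and rose against 3 weeks, at 1.11 ± 0.26 (adjusted p = 0.00961), or 1.25 ± 0.24 without 7 week replicate 1, but under quantile normalization the value was 0.40 and the call was lost (adjusted p = 0.193). Gins1, Gins2 and Gins4 had 7 week values of -0.65, -0.96 and -0.96 against normal diet, none past the threshold, and 0.37, 0.12 and -0.26 without 7 week replicate 1.

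**Figure D4:**
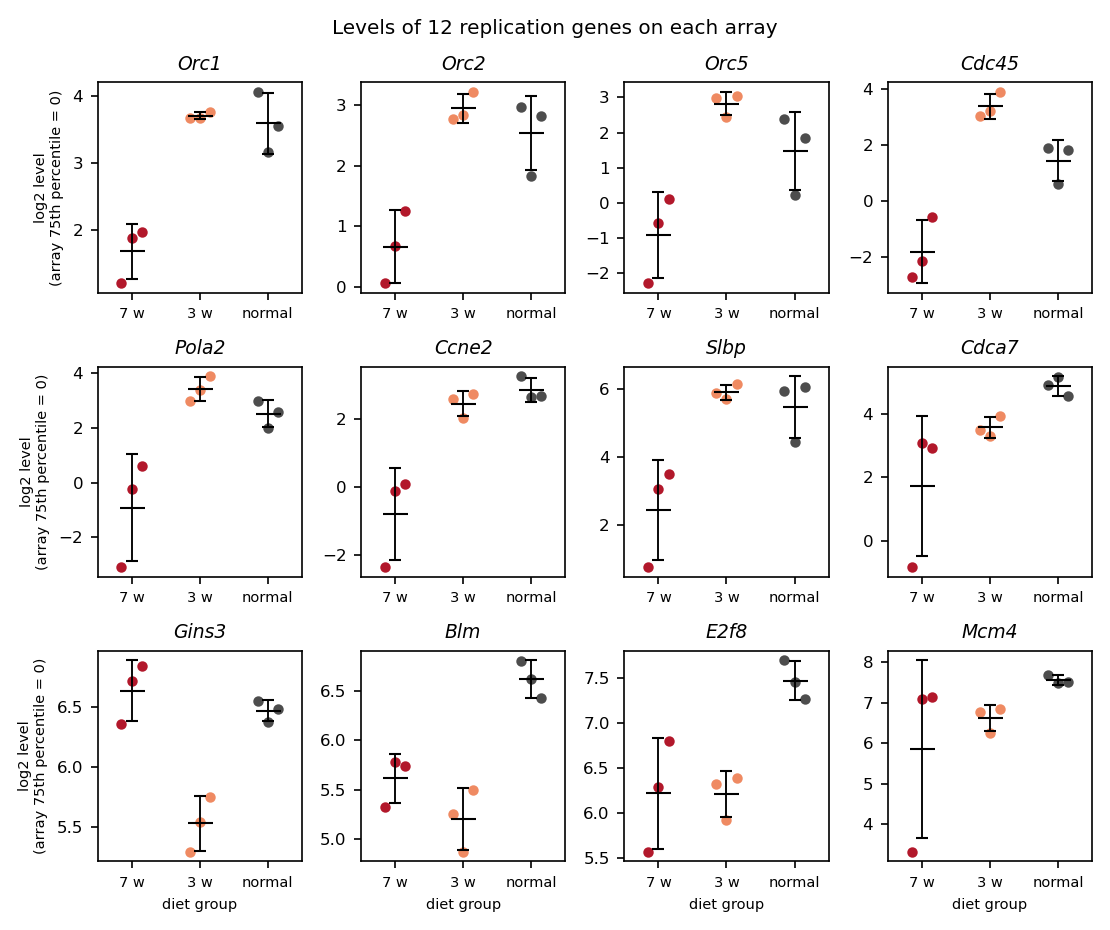
Log2 level (array 75th percentile = 0) of 12 members on each array, with the mean and SD of each group of 3 as bars and whiskers (7 w and 3 w, weeks of low iron diet; normal, normal diet). For Cdc45 the 7 week arrays lie between -2.73 and -0.55, the 3 week arrays between 3.06 and 3.91 and the normal diet arrays between 0.61 and 1.89.

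At the fork, 4 of 16 members fell at 7 weeks against normal diet (Pola2, Pola1, Rpa1 and Blm), and the group's medians were -1.28 at 7 weeks and -0.31 at 3 weeks. They were -0.55 at 7 weeks without 7 week replicate 1 and 0.25 at 3 weeks under quantile normalization. Both measured subunits of the DNA polymerase alpha core fell. Pola1, the catalytic subunit, had levels of 1.64, 3.85 and 4.40 at 7 weeks, 4.41, 3.94 and 4.80 at 3 weeks and 5.99, 5.42 and 5.65 on normal diet. All 6 low iron arrays lay below normal diet. Pola1 fell, at -2.39 ± 0.63 (adjusted p = 0.0225) at 7 weeks, a call lost without normal diet replicate 1 or 3 and -1.56 ± 0.34 without 7 week replicate 1, and had -1.30 ± 0.63 (adjusted p = 0.202) at 3 weeks. Pola2, its regulatory subunit, stood at -3.09, -0.25 and 0.61 on the 7 week arrays, 2.98, 3.37 and 3.88 on the 3 week arrays and 2.98, 1.99 and 2.57 on the normal diet arrays, with 7 week replicate 1 not above background. Its 7 week arrays were the 3 lowest. Its fold change was -3.43 ± 0.81 (adjusted p = 0.0153) against normal diet (10.8-fold lower), a call lost without normal diet replicate 1 or 3, and -4.32 ± 0.81 (adjusted p = 0.00404) against 3 weeks, which held in all 9 such fits. With that array left out they were -2.34 ± 0.41 and -3.23 ± 0.41. Prim1, the primase subunit that makes the RNA primer, did not pass at 7 weeks (-1.45 ± 0.56, adjusted p = 0.0786). The DNA polymerase epsilon genes Pole and Pole2 did not pass either (-0.76 ± 0.62, adjusted p = 0.369 and -2.55 ± 1.0, adjusted p = 0.0835), though Pole2 passed without 7 week replicate 1 (-1.09 ± 0.30).

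Pcna, the sliding clamp, had levels of 4.95, 7.58 and 7.68 at 7 weeks, 7.32, 7.30 and 7.29 at 3 weeks and 7.98, 7.96 and 7.73 on normal diet. Aside from 7 week replicate 1 its arrays lay within 1 log2 unit, and the 3 week arrays were all below normal diet. Its fold change was -1.15 ± 0.63 (adjusted p = 0.192) at 7 weeks and -0.59 ± 0.63 (adjusted p = 0.573) at 3 weeks, neither past the threshold, though under quantile normalization Pcna passed at 7 weeks (-1.69, adjusted p = 0.0478). Rfc3, a subunit of the clamp loader, stood at -3.07, 1.76 and 1.43 on the 7 week arrays, 2.92, 3.04 and 3.56 on the 3 week arrays and 2.12, 1.30 and 2.04 on the normal diet arrays, with 7 week replicate 1 not above background. Its 3 week arrays lay above all the others. Rfc3 fell against 3 weeks, at -3.14 ± 1.08 (adjusted p = 0.0465), a call lost without any 1 of the normal diet or 3 week arrays and -1.58 ± 0.34 without 7 week replicate 1, and had -1.78 ± 1.08 (adjusted p = 0.231) against normal diet. The other loader subunits Rfc1, Rfc2, Rfc4 and Rfc5 had 7 week values from -1.81 (Rfc4) to -0.89 (Rfc5) against normal diet and did not pass.

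Blm, the RecQ helicase that unwinds abnormal structures at forks, had levels of 5.33, 5.78 and 5.74 at 7 weeks, 5.25, 4.87 and 5.50 at 3 weeks and 6.81, 6.63 and 6.43 on normal diet. All 6 low iron arrays lay below the 3 normal diet arrays. Blm fell, at -1.01 ± 0.28 (adjusted p = 0.026) at 7 weeks, a call lost without any 1 normal diet array and -0.86 ± 0.27 without 7 week replicate 1. It also fell, at -1.41 ± 0.28 (adjusted p = 0.0183) at 3 weeks, a call lost without any 1 normal diet array or 3 week replicate 1 or 2, with values from -1.56 to -1.25, and lost under quantile normalization (-0.94, adjusted p = 0.058). Rpa1, the large subunit of the single-strand binding protein, fell at 7 weeks, at -1.30 ± 0.43 (adjusted p = 0.0498) and had -1.14 ± 0.43 (adjusted p = 0.118) at 3 weeks. Among the 9 fits that left out 1 array, the 7 week call of Rpa1 was kept only in the one without 7 week replicate 3, with values from -1.68 to -0.78, the smallest of them without 7 week replicate 1. Rpa2 (-0.95 ± 0.75, adjusted p = 0.361), the flap nuclease Fen1 (-1.26 ± 0.46, adjusted p = 0.0647) and the ligase Lig1 (-0.51 ± 0.47, adjusted p = 0.433) did not pass at 7 weeks.

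None of the 5 genes of nucleotide supply passed in any of the 3 comparisons when arrays were scaled to their 75th percentile, and at an unadjusted p under 0.05 there was 1 at 7 weeks, none at 3 weeks and none between the times. Their median at 7 weeks against normal diet was -0.61, or -0.098 without 7 week replicate 1. Under quantile normalization it was -1.10, and Rrm1 (-1.22, adjusted p = 0.0462), Rrm2 (-1.13, adjusted p = 0.0388) and Tk1 were lower at 7 weeks, as they were against 3 weeks. Rrm1, the large subunit of ribonucleotide reductase, had levels of 4.69, 6.19 and 6.37 on the 7 week arrays, 6.19, 6.13 and 6.24 on the 3 week arrays and 7.15, 6.69 and 6.85 on the normal diet arrays. Its 6 low iron arrays lay below normal diet. Its fold change was -1.15 ± 0.42 (adjusted p = 0.0695) at 7 weeks, -0.62 ± 0.24 without replicate 1, and -0.71 ± 0.42 (adjusted p = 0.296) at 3 weeks. The 3 week fall of Rrm1 passed in limma fits without 7 week replicate 1 (adjusted p = 0.0461) and with the 2 groups alone (adjusted p = 0.0399). Rrm2, the small subunit that holds the iron centre, stood at 6.05, 7.52 and 7.69 at 7 weeks, 7.27, 7.23 and 7.37 at 3 weeks and 7.71, 7.71 and 7.69 on normal diet. The 7 week replicates 2 and 3 were at or near normal diet, and replicate 1 was under every other array. Its 7 week fold change was -0.61 ± 0.41 (adjusted p = 0.274), and -0.10 ± 0.22 without that array. Rrm2 reached 41.7% of the saturation value, so its signal was among the strongest of the members. Tyms, which makes thymidylate, had 1.33, 2.10 and 1.48 on the 7 week arrays, 2.11, 1.15 and 1.66 on the 3 week arrays and 1.59, 1.19 and 1.44 on the normal diet arrays. Its groups overlapped throughout. The fold change of Tyms was 0.23 ± 0.33 (adjusted p = 0.624) at 7 weeks and 0.23 ± 0.33 (adjusted p = 0.677) at 3 weeks. Tk1, the thymidine salvage kinase, and Dut, which removes dUTP, had 7 week values of -0.17 ± 0.27 (adjusted p = 0.647) and -1.11 ± 0.70 (adjusted p = 0.251).

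Among the E2F and cyclin E regulators, Ccne2 and E2f8 fell at 7 weeks against normal diet, and the median over the 5 genes was -1.30 at 7 weeks and -0.95 at 3 weeks. The medians were -0.78 at 7 weeks without 7 week replicate 1 and -0.53 at 3 weeks under quantile normalization. The 2 cyclin E genes differed in size. Ccne2, cyclin E2, had levels of -2.36, -0.11 and 0.09 at 7 weeks, 2.58, 2.03 and 2.73 at 3 weeks and 3.26, 2.64 and 2.67 on normal diet. The 7 week arrays lay below the other 6, and the 3 week arrays overlapped normal diet. Ccne2 fell, at -3.65 ± 0.60 (adjusted p = 0.00442) against normal diet (12.6-fold lower) and at -3.24 ± 0.60 (adjusted p = 0.00364) against 3 weeks, calls kept in all 9 fits that left out 1 array, at -2.87 ± 0.31 and -2.46 ± 0.31 without 7 week replicate 1. Ccne1, cyclin E1, stood at 4.39, 7.03 and 7.21 on the 7 week arrays, 6.64, 6.62 and 6.91 on the 3 week arrays and 7.41, 7.34 and 6.93 on the normal diet arrays. Apart from 7 week replicate 1 its arrays spanned less than 1 log2 unit. Its fold change at 7 weeks was -1.02 ± 0.65 (adjusted p = 0.257), and -0.11 ± 0.26 without that array. Another, dimmer probe of Ccne1 was lower at 7 weeks (-2.11 ± 0.57, adjusted p = 0.0243).

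E2f1, an activator of S phase genes, had levels of 1.62, 4.32 and 5.16 at 7 weeks, 4.66, 4.07 and 5.0 at 3 weeks and 5.54, 5.42 and 5.61 on normal diet. The low iron arrays all lay below normal diet. Its values were -1.82 ± 0.76 (adjusted p = 0.099) at 7 weeks and -0.95 ± 0.76 (adjusted p = 0.442) at 3 weeks, neither past the threshold. E2f8, an E2F repressor without a Dp partner, stood at 5.57, 6.28 and 6.80 on the 7 week arrays, 6.33, 5.92 and 6.38 on the 3 week arrays and 7.69, 7.45 and 7.26 on the normal diet arrays. All 6 low iron arrays were below the 3 normal diet arrays. E2f8 fell, at -1.25 ± 0.34 (adjusted p = 0.0264) at 7 weeks, a call lost without any 1 normal diet array and -0.93 ± 0.28 without 7 week replicate 1. It also fell, at -1.26 ± 0.34 (adjusted p = 0.0475) at 3 weeks, a call kept only without 7 week replicate 1 or 3 among the fits that left out 1 array, with values from -1.36 to -1.11, and lost under quantile normalization (-0.71, adjusted p = 0.19). Its value between the times was 0.01 ± 0.34 (adjusted p = 0.986). E2f7, the related repressor, had -1.30 ± 0.53 (adjusted p = 0.0932) at 7 weeks and -1.13 ± 0.53 (adjusted p = 0.19) at 3 weeks.

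In the chromatin and histone supply group, Slbp and Cdca7 fell at 7 weeks against normal diet, and the median over the 5 genes was -1.71 at 7 weeks and -0.41 at 3 weeks. Without 7 week replicate 1 the 7 week median was -0.61, and under quantile normalization the 3 week median turned to 0.11. Slbp, which binds the stem-loop of replication-dependent histone mRNAs, had levels of 0.76, 3.05 and 3.52 at 7 weeks, 5.88, 5.72 and 6.16 at 3 weeks and 5.95, 4.44 and 6.05 on normal diet. The 7 week arrays were the 3 lowest, and normal diet replicate 2 lay below the other normal diet arrays. Slbp fell, at -3.04 ± 0.70 (adjusted p = 0.0138) against normal diet, a call lost without normal diet replicate 1 or 3, and at -3.48 ± 0.70 (adjusted p = 0.00537) against 3 weeks, which held in all 9 such fits. Without 7 week replicate 1 these were -2.19 ± 0.48 and -2.63 ± 0.48. Its other probe gave -2.81 ± 0.84 against normal diet (adjusted p = 0.0342). Cdca7, a target of E2F and Myc that partners the chromatin remodeller Hells, stood at -0.84, 3.08 and 2.91 on the 7 week arrays, 3.49, 3.28 and 3.92 on the 3 week arrays and 4.89, 5.16 and 4.55 on the normal diet arrays. The 6 low iron arrays lay below normal diet, and all 7 week arrays below the 3 week arrays. Cdca7 fell, at -3.16 ± 0.89 (adjusted p = 0.0285) at 7 weeks, -1.88 ± 0.29 without replicate 1, a call lost without any 1 normal diet array and under quantile normalization. Its 3 week value was -1.30 ± 0.89 (adjusted p = 0.361).

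Uhrf1, which brings the maintenance methyltransferase to hemimethylated DNA behind the fork, had levels of 3.82, 6.01 and 6.35 at 7 weeks, 5.29, 4.96 and 5.82 at 3 weeks and 6.49, 6.34 and 6.40 on normal diet. The 3 week arrays lay below normal diet, and 7 week replicates 2 and 3 lay close to it. Its fold change by the brightest probe was -1.02 ± 0.59 (adjusted p = 0.215) at 7 weeks and -1.06 ± 0.59 (adjusted p = 0.266) at 3 weeks. Another, dimmer probe of Uhrf1 was lower at 7 weeks (-4.37 ± 0.79, adjusted p = 0.00577), so its 2 probes disagree in size. On 7 week replicates 1 and 3 the dimmer probe (-5.24 and -4.89) lay below the lowest level well above background (-3.03 and -3.89). The size of its fall is therefore uncertain. The histone chaperone subunits Chaf1a and Chaf1b had -1.0 ± 0.54 (adjusted p = 0.184) and -1.71 ± 0.77 (adjusted p = 0.123) at 7 weeks against normal diet. Chaf1a fell against 3 weeks, at -1.56 ± 0.54 (adjusted p = 0.048), a call lost without any 1 of the normal diet or 3 week arrays and -0.86 ± 0.30 without 7 week replicate 1.

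Genes of the same processes outside the 51 members were counted in the same fit, with all 9 arrays unless said otherwise. Of 20 further origin and checkpoint genes 9 fell and none rose at 7 weeks against normal diet, with the largest falls for the fork protector Donson (-2.43 ± 0.50, adjusted p = 0.00922), the helicase Mcm8 (-2.25 ± 0.64, adjusted p = 0.0293) and Cdc7, the kinase that fires origins (-2.0 ± 0.47, adjusted p = 0.0151). The counts were 8 lower and 1 higher without 7 week replicate 1, where Mcm8 was at -1.47. On each of the 7 week arrays Cdc7 (-5.07, -4.61 and -4.49) lay below the lowest level well above background (-3.03, -3.55 and -3.89). Mcm8 did so on 7 week replicate 1 (-4.39). The sizes of the 7 week falls of Cdc7 and Mcm8 are therefore uncertain. Against 3 weeks 7 of the 20 fell and 1, Atr, rose (0.73), led by Cdk2, the partner of cyclin E (-3.21 ± 0.61), Dbf4, the activator of Cdc7 (-2.78 ± 0.37), and Cdc7 (-2.73 ± 0.47). At 3 weeks the checkpoint kinase Atr fell (-1.03 ± 0.24, adjusted p = 0.0293), 1 of the 20. Of 19 further fork genes 3 fell at 7 weeks against normal diet (the exonuclease Exo1 at -2.99 ± 0.70, the primase subunit Prim2 at -1.99 ± 0.46 and the polymerase delta subunit Pold2 at -1.82 ± 0.59) and the delta subunit Pold4 rose (1.17). With 7 week replicate 1 left out there were 3 lower and 2 higher, with Pold2 at -1.06 and Pold4 at 0.94 and no longer past the threshold (adjusted p = 0.0622). Between the times 3 of the 19 fell, among them Dna2 (-3.0 ± 0.91) and Pold2 (-2.37 ± 0.59), and Rnaseh2c, a subunit of RNase H2, rose (1.91 ± 0.26), while at 3 weeks it fell (-1.28 ± 0.26), a call lost under quantile normalization.

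Of 8 measured nucleotide genes outside the members 1 fell at 7 weeks, the deoxycytidine salvage kinase Dck (-2.21 ± 0.26, adjusted p = 0.00198), which also fell against 3 weeks (-2.17 ± 0.26). At 3 weeks none of the 8 passed, and the brightest, the thymidylate kinase Dtymk, had -0.56 ± 0.85. Of 12 further E2F and Rb genes 4 fell and 1 rose at 7 weeks against normal diet. Ccnd2, a D-type cyclin, rose at 7 weeks (3.55 ± 0.31, adjusted p = 8.94e-04) and at 3 weeks (2.03 ± 0.31, adjusted p = 0.00987), while the pocket protein Rbl1 (-2.66 ± 0.51) and E2f6 (-1.84 ± 0.39) fell at 7 weeks, as did Rb1 (-1.03) and Rbl2 (-1.57). At 3 weeks E2f5 rose (2.26 ± 0.57) and E2f4 fell (-1.79 ± 0.39). Between the times 4 of the 12 fell, among them Tfdp1, the Dp partner of E2F (-3.74 ± 1.01), Rbl1 (-2.91 ± 0.51) and E2f5 (-1.94 ± 0.57), and 2 rose, Ccnd2 (1.52 ± 0.31, adjusted p = 0.00573) and the activator E2f2 (1.45 ± 0.28, adjusted p = 0.00468), the call of E2f2 being lost under quantile normalization. Of 7 further chromatin genes 3 fell at 7 weeks, the histone chaperones Asf1a (-3.49 ± 0.44) and Asf1b (-1.49 ± 0.32) and the deubiquitinase Usp1 (-1.74 ± 0.42), and none passed at 3 weeks, where Rbbp4 had -0.34 ± 0.33. Between the times Hells (-3.90 ± 1.3), Asf1a (-3.62 ± 0.44) and Asf1b (-0.95 ± 0.32) fell. Quantile normalization took the call of Hells, and omission of 7 week replicate 1 that of Asf1b. In the nucleotide, E2F and Rb, and chromatin lists, 1, 5 and 4 were lower and 1, 1 and none higher at 7 weeks against normal diet without that replicate.

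The G2 and M phase genes were measured for the next steps of the cycle, and 15 of 25 fell and none rose at 7 weeks against normal diet, with a median of -0.90, or 16 with a median of -1.0 without 7 week replicate 1. The spindle checkpoint kinase Ttk (-3.70 ± 0.54), the kinetochore protein Ndc80 (-3.11 ± 0.60) and the cytokinesis protein Anln (-2.56 ± 0.26) fell the most. On the 7 week arrays the median difference of these 25 genes from the normal diet mean was -0.72, -1.13 and -0.89, so replicate 1 was not the lowest of the 3, unlike for the replication genes. Against 3 weeks 13 fell and 2 rose, the falls led by Ttk (-3.25 ± 0.54), Ndc80 (-3.12 ± 0.60) and the kinase Aurkb (-2.33 ± 0.33), and the 2 that rose were Mki67 (0.87) and Birc5 (1.08). At 3 weeks the survivin gene Birc5 alone of the 25 fell (-0.85 ± 0.23). Under quantile normalization 20 fell and none rose between the times, and at 3 weeks none fell and Bub1b, Plk1 and Top2a rose. Of 10 measured replication enzymes with an iron centre or an iron-sulfur cluster, 2 fell at 7 weeks against normal diet, Pola1 and Prim2. Between the times Dna2 and the helicase Ddx11 (-2.84 ± 0.74) fell, and at 3 weeks none passed, Prim2 having -0.72 ± 0.46.

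Markers of other marrow cells moved with the comparisons too. Of 12 measured monocyte and macrophage markers 5 fell at 7 weeks (Adgre1, Vcam1, C1qa, Mrc1 and Mertk) and 4 rose at 3 weeks (Lyz2, Cd14, C1qa and Axl) against normal diet, and their summed linear level was 23.9 to 30.3 at 7 weeks, 73.8 to 101.0 at 3 weeks and 41.1 to 61.3 on normal diet. Of 6 markers of mast cells, basophils and eosinophils 2 fell at 7 weeks (Prg2 and Epx), with a summed level of 0.535 to 0.688 at 7 weeks, 0.577 to 24.5 at 3 weeks and 13.4 to 24.1 on normal diet. The erythroid markers Hbb-bt, Alas2 and Slc4a1 were higher at 7 weeks, and none of the 14 passed the threshold at 3 weeks. Atr between the times, Pold4, E2f2, Ccnd2 between the times, Rb1, Rbl2, Mki67, Birc5 between the times and these markers were named after their values were seen. The part of these cells in the results on replication genes was not tested.

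Across the 51 members the fold change had a correlation of opposite sign at the 2 times with the strength of the probe's signal. Over the 51 members, Pearson's r between the mean log2 level on the 9 arrays and the log2 fold change was 0.43 at 7 weeks against normal diet (Spearman's rho 0.36) and -0.65 at 3 weeks (rho -0.51). The members are not independent, since they share the arrays and their 75th percentiles, and the same levels enter both axes. Under quantile normalization r was 0.28 at 7 weeks (rho 0.13) and -0.44 at 3 weeks (rho -0.35). Cdc45 and Orc5 had low levels with negative values at 7 weeks and positive ones at 3 weeks, while Tyms, also at a low level, had 0.23 at both times.

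**Figure D5:**
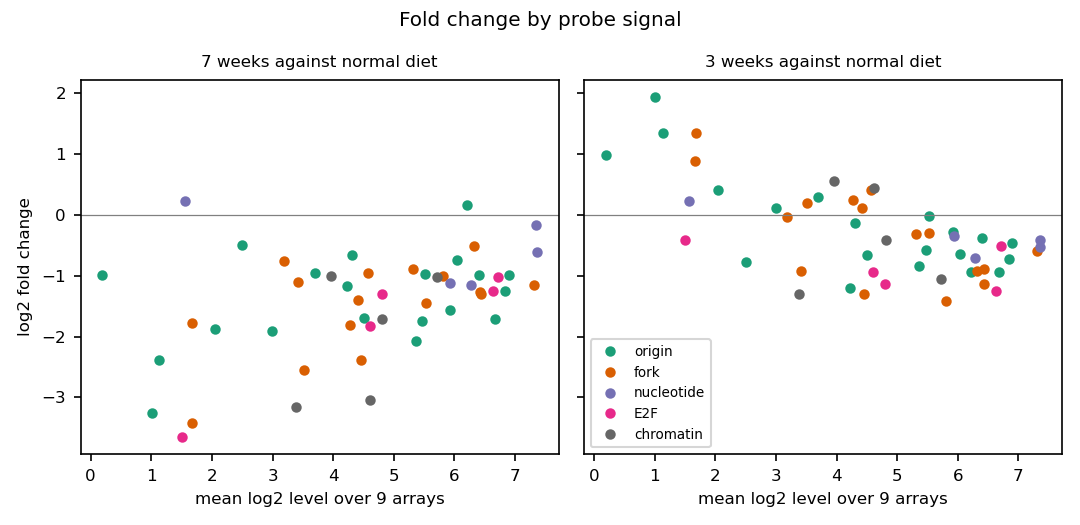
Log2 fold change against normal diet of each member by its mean log2 level over the 9 arrays (array 75th percentile = 0), at 7 weeks (left) and 3 weeks (right), coloured by role group. The points slope up at 7 weeks and down at 3 weeks, with r of 0.43 and -0.65 over 51 genes, and scatter widely at low levels.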

How the data were processed

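The 51 members and the gene lists were chosen with earlier results of these data known, so they are described by counts and medians beside those of all genes, with no test of a list. Members described with every array's value are 16 fixed by name and, in each comparison, the 8 with the largest fold change among those called; of the other lists up to 3 genes past the threshold are named, or the brightest where none passed.

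Per the file headers, Agilent Feature Extraction 10.7.3.1 made the deposited spot intensity values, subtracting background and detrending each array on its own; arrays were not scaled to each other. A series table, also deposited, gives log2 values that were centred on each probe's median by its values, with the array medians between -0.019 and 0; set against centred scanner values it gave r from 0.922 to 0.988 and positive slopes, and the scaling between arrays before centring stays unknown. It served as an alternative.

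Spots marked as outliers were left out, log2 processed signals, less the 75th percentile of their array, were averaged over the spots of a probe, and 55681 probes were named by RefSeq accession through a GRCm38.p6 table used for names (26413 probes, 20018 symbols); 984 probes without a usable spot on some array were dropped. Testing needed a probe well above background on every array of a group, and the brightest probe stood for a gene, which left 14504 genes. All 9 arrays entered 1 model in limma 3.58.1 (R 4.3.3), two-sided, adjusted by Benjamini-Hochberg over the 14504 genes, with 0.05 as the threshold. Adjusted p-values in the text come from that fit unless another is named. The number of arrays limits the precision. In data simulated for 3 weeks against normal diet (14504 genes), 1% of genes changed by 1 log2 unit were recovered. Of those changed by 2 units, 36% were recovered. Far fewer genes were changed in that simulation than the 510 higher and 1143 lower genes called at 3 weeks. Recovery after adjustment depends on the share of genes changed, so these percentages do not carry over to the real comparisons.

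Alternatives were normexp background correction (offset 50, on the median signal, since the files used hold no mean signal column), quantile normalization, the percentile over probes above background on all arrays, median centring, no filter, probes above background on all 9 arrays, the mean over probes, the deposited table, the 2 groups compared alone, the replicate number as a block, and leaving out each array or normal diet replicates 1 and 2. Values of some marker genes are not reported here.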

Additional observations from a re-analysis of the deposited data

Results flagged for a closer look

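The difference between 7 and 3 weeks of low iron diet equals the difference between the 2 diet effects, since both are set against the same normal diet arrays, and it was past the threshold of limma's test for 11 of the 51 members. In log2 units it was -5.20 for Cdc45, -4.32 for Pola2, -3.73 for Orc5, -3.48 for Slbp, -3.24 for Ccne2, -3.14 for Rfc3, -2.27 for Orc2, -2.03 for Orc1, -1.98 for Orc4 and -1.56 for Chaf1a, and it was 1.11 for Gins3. Without 7 week replicate 1 all 11 kept their sign and their call, with Rfc3 at -1.58 and Chaf1a at -0.86. Rfc3 and Chaf1a lost the call without any 1 of the normal diet or 3 week arrays. The 3 groups were on 3 separately scanned slides, so the time on the diet and the slide cannot be told apart. Both diet times count from weaning, so age and the time on the diet cannot be told apart either.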

How the results depend on the processing

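The direction of the 7 week fall held under each alternative run, and its count did not. Members lower at 7 weeks against normal diet (13) were 6 with the 2 groups alone and 0 without normal diet replicates 1 and 2. At 3 weeks the 3 lower members became 0 under quantile normalization and without normal diet replicates 1 and 2, 15 with the 2 groups alone, and 1 with the percentile over probes above background on all arrays, with no filter, with the mean over probes, in the deposited table and under the replicate block. The 0 higher members at 3 weeks became 1 under normexp, with probes above background on all 9 arrays and under the replicate block, 2 with that percentile and 3 with the 2 groups alone. Between the times quantile normalization gave 17 lower and 0 higher members, beside 3212 lower and 2266 higher among all 14504 genes.

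Leaving out 1 array at a time gave medians over members of -1.62 to -0.54 at 7 weeks, -0.56 to -0.38 at 3 weeks and -1.41 to 0.089 between the times; lower members of 3 to 22, 0 to 14 and 8 to 15; and higher members of 0 to 0, 0 to 3 and 1 to 3. At 7 weeks the count was 3 without normal diet replicate 1, 4 without replicate 3 and 22 without 7 week replicate 3.

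Signs turned in the median over members at 3 weeks (0.13 under quantile normalization) and in single members, all with values near 0 or not past the threshold in the fit of all arrays. At 3 weeks quantile normalization gave Mcm2 0.053, Mcm5 0.44, Rrm2 0.13 and Ccne1 0.21, the mean over probes gave Ccne1 0.047, and omission of normal diet replicates 1 and 2 gave Slbp -0.14. Between the times Tyms was 0.031 (normexp), 0.12 (quantile), 0.067 (percentile over all-array probes) and 0.25 (median centring), where Rrm2 was 0.055. E2f8 was -0.16 (normexp), -0.79 (quantile) and -0.071 (deposited table), and Uhrf1 was -0.025, -0.48 and -0.042 in these and -2.17 with the mean over probes. Without 1 array the ranges were, at 3 weeks, -0.10 to 0.35 for Orc1, -0.082 to 0.72 for Slbp and -7.6e-04 to 0.48 for Tyms, and at 7 weeks -0.0020 to 0.38 for Tyms. Between the times they were -0.25 to 0.23 for Tyms, -0.28 to 0.33 for E2f8, -0.44 to 0.83 for Uhrf1, -1.04 to 0.33 for Pcna, -0.75 to 0.092 for Rrm1, -0.51 to 0.31 for Rrm2, -1.02 to 0.39 for Ccne1 and -1.61 to 0.16 for E2f1. The cause was not tested.

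Replicate numbers did not pair the samples, since deviations of same-numbered arrays correlated between -0.17 and 0.29, and the replicate block gave 12 lower members at 7 weeks and 9 lower and 1 higher between the times. Dim signal limits Pola2 and Rfc3, which were not above background on 7 week replicate 1. It also limits the dimmer probes of Uhrf1 and Orc3, and Cdc7 and Mcm8 outside the members.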

Other observations

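Several members had another probe that passed the filter, and some differed from the brightest one. At 7 weeks against normal diet the dimmer probe of Orc3, a subunit of the origin recognition complex, was at -3.35 ± 0.58 (limma adjusted p = 0.00515), against -0.50 by the brightest probe. Its levels were -5.09, -5.44 and -3.19 on the 7 week arrays, -3.07, -1.99 and -2.09 on the 3 week arrays and -0.78, -1.55 and -1.34 on the normal diet arrays. The 7 week arrays of that probe were the 3 lowest of the 9. On 7 week replicates 1 and 2 it lay below the lowest level well above background (-3.03 and -3.55), so the size of its fall is uncertain. The other E2f7 probe was at 0.08 ± 0.38, against -1.30. The other probes of Cdc6 (-2.24), Chaf1b (-2.02) and Orc4 (-1.39) did not pass the threshold.

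Markers of 4 more kinds of marrow cells were counted. Of 14 neutrophil lineage markers 1 was higher at 7 weeks (Elane) and 2 at 3 weeks (Ngp and Mmp9) against normal diet, with a summed linear level of 581.7 to 851.5 at 7 weeks, 463.6 to 659.6 at 3 weeks and 462.0 to 918.1 on normal diet. Of 8 B lineage markers 1 was higher and 1 lower at 7 weeks (Cd79a and Ms4a1), and Ms4a1 and Cd74 were higher at 3 weeks. Their summed level was 4.24 to 11.4 at 7 weeks, 10.7 to 25.7 at 3 weeks and 4.79 to 7.66 on normal diet. Of 8 T and NK markers 1 was higher at 7 weeks (Cd4) and none passed at 3 weeks, with sums of 22.9 to 43.2, 18.0 to 27.8 and 19.1 to 21.2 in the same order of groups. Of 7 megakaryocyte markers 1 was lower at 7 weeks (Gp9) and none passed at 3 weeks, with sums of 12.9 to 43.5, 24.3 to 69.6 and 23.9 to 57.1. Their part in the results on replication genes was not tested.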
